A study of Homo sapiens with 9 samples.

Results

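The 36 genes described here encode the enzymes that bring pyruvate into the mitochondrion, turn the tricarboxylic acid (TCA) cycle and exchange its intermediates with the cytosol. They were chosen by symbol, with earlier results of these data known, and all 36 were found among the 60591 symbols of the table. All 36 passed the expression filter that left 15944 genes for testing. PCK1 passed it only through treated libraries, where it is higher, so its values are no test of a difference from Control. Counts of called members are therefore given for the other 35, and PCK1 is described by its counts.

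The libraries came from uCaco-2, undifferentiated and proliferating cultures of Caco-2, an established line from a human colon adenocarcinoma. Control cells received fresh medium, CoCl2 cells 300 μM cobalt (II) chloride, and OD cells 5 μM of an oxyquinoline derivative (OD). All 3 groups, Control included, carried 0.5% DMSO, and RNA was taken after 24 h from 3 biological replicates per group. The study used both compounds as chemical activators of the hypoxia-inducible factor (HIF) pathway, which low oxygen turns on. In bulk RNA of this kind, fewer cells and less RNA per cell cannot be told apart.

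In the TCA cycle, acetyl-CoA is joined to oxaloacetate to form citrate, which is then oxidised step by step back to oxaloacetate while electrons pass to NADH and FADH2. Pyruvate enters through the mitochondrial pyruvate carrier and is either oxidised to acetyl-CoA by the pyruvate dehydrogenase complex or carboxylated to oxaloacetate by pyruvate carboxylase. HIF activity is known to slow the first of these routes through the pyruvate dehydrogenase kinases, and colon cells also use glutamine, which enters the cycle as 2-oxoglutarate.

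Library totals ranged from 15998136 to 24209427 counts. The scaling factors of the TMM method, which set libraries of different composition on a common scale, were 0.770 to 0.795 with CoCl2 against 1.11 to 1.15 in the other 6 libraries. With library size alone in their place, the median log2 fold change of all tested genes with CoCl2 became -0.55 instead of -0.05, and the members moved down by a like amount, so that the CoCl2 changes below are relative to the bulk of the transcriptome. The epithelial gene EPCAM was strongly expressed in every library, at 738 CPM or more, whereas the leukocyte gene PTPRC reached at most 0.232 CPM. The enterocyte gene VIL1 stood at 596 to 632 CPM in Control and 108 to 119 CPM with CoCl2. BNIP3, a HIF target outside the 36, was upregulated by 3.77 with CoCl2 and 3.98 with OD on the log2 scale.

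CPM here are read counts per unit of TMM-scaled library size, the usual CPM, the fold changes are log2 values with their standard error, and adjusted p-values are those of the quasi-likelihood test in edgeR, corrected over all 15944 genes by the Benjamini-Hochberg method. A gene is called upregulated or downregulated where the adjusted p was under 0.05 and the log2 fold change above 1 in size. All 3 comparisons use the same 9 libraries, and both treatments were set against the same Control libraries.

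With CoCl2, 11 of the 35 members (31.4%) were called, against 43.2% of all tested genes. Of these, 2 members (5.71%) were upregulated and 9 (25.7%) downregulated, against 19.9% and 23.4% of all tested genes. The upregulated members were IDH1 and DLST. The downregulated members were IDH2, OGDH, OGDHL, SUCLG2, FH, PCK2, D2HGDH, SLC25A10 and SLC25A11. By adjusted p alone, 9 members were higher and 20 lower, and 6 did not pass, so 82.9% passed against 83.2% of all tested genes. In 30 members the 3 CoCl2 libraries did not overlap the 3 Control libraries, beside 83.4% of all tested genes. The median log2 fold change was -0.30 over the members and -0.05 over all genes.

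With OD, 0 of the 35 members were called by edgeR in either direction, against 13.3% of all tested genes, of which 9.09% were upregulated and 4.16% downregulated. DESeq2 called 1 of them, PC, upregulated and 0 downregulated. The members' changes were smaller than with CoCl2, with a median size of 0.32 against 0.56 on the log2 scale, and 24 had the larger change with CoCl2. By adjusted p alone, 8 members were higher and 22 lower with OD, 85.7% in all, against 65.6% of all tested genes. In 32 members the OD and Control libraries did not overlap, beside 68% of all tested genes.

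Set directly against each other, CoCl2 and OD differed past both thresholds for 10 of the 35 members, 28.6% against 41.3% of all tested genes. The 2 higher and 8 lower members made up 5.71% and 22.9%, against 17.5% and 23.8% of all tested genes. By adjusted p alone 32 members passed, 91.4% against 83.5%, and in 33 the groups did not overlap, beside 83.8% of all tested genes. IDH3B and DLST were higher with CoCl2 than with OD. IDH2, OGDH, OGDHL, SUCLG2, PCK2, D2HGDH, SLC25A10 and SLC25A11 were lower with CoCl2 than with OD.

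Taken as 1 pool, the transcripts of the 36 members held 0.519% to 0.535% of all counts in the Control libraries, 0.356% to 0.367% with CoCl2 and 0.497% to 0.503% with OD. After TMM scaling the pool came to 4656 to 4834 CPM in Control, 4547 to 4654 CPM with CoCl2 and 4327 to 4412 CPM with OD. The treatments therefore ranked differently on these scales, with CoCl2 lowest by share of counts and OD lowest by scaled CPM. Replicates were close, with a median coefficient of variation of 3.44% over members and groups. Apart from PCK1, with its few counts, the widest was 25.7%, for SLC25A10 with OD.

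**Figure D1:**
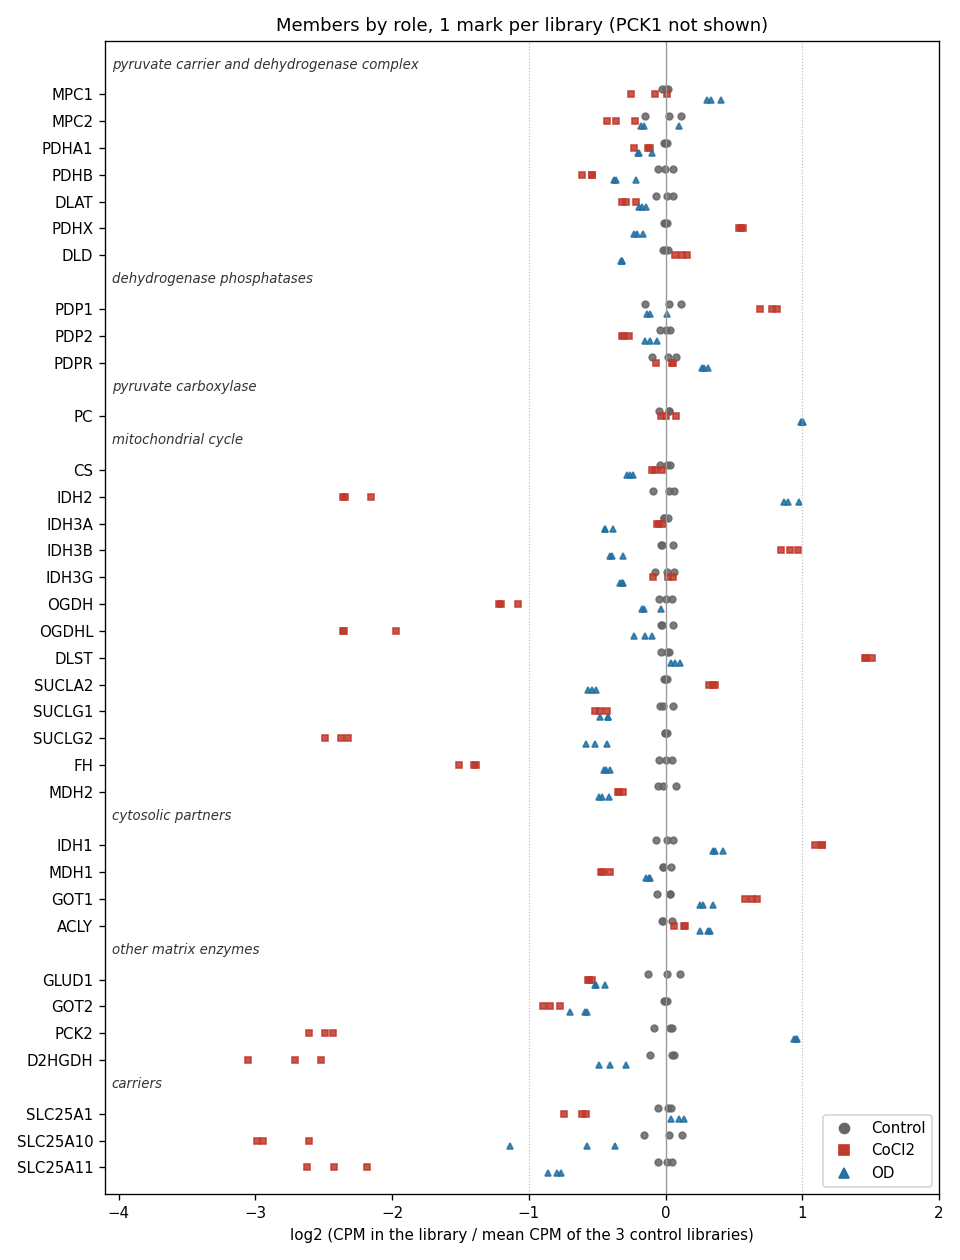
Horizontal axis, log2 of the CPM of a member in 1 library over the mean CPM of the 3 Control libraries, with 35 members in rows by role, 1 mark per library (grey circles Control, red squares CoCl2, blue triangles OD) and dotted lines at a change of 1; PCK1, nearly absent from Control, is left out. The CoCl2 marks of IDH2, OGDH, OGDHL, SUCLG2, FH, PCK2, D2HGDH, SLC25A10 and SLC25A11 lie beyond -1 on the left. Those of DLST and IDH1 lie beyond 1 on the right, while the OD marks of IDH2, PCK2 and PC lie near 1.

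Per kilobase of the reference transcript (MANE Select, GENCODE 44), the most abundant member in Control was GLUD1 at 189.7 ± 15.4 CPM per kb (SD, n = 3), followed by MDH1 at 168.7 ± 3.83. IDH1, SUCLG1, MDH2 and ACLY followed with means from 126 to 131 CPM per kb, closer together than the spread between their libraries allowed to order. With CoCl2 the order changed, with IDH1 first at 287, IDH3B next at 156 and then ACLY at 136 CPM per kb. With OD, IDH1 stood at 170.5, ACLY at 154.6 and MDH1 at 154.5 CPM per kb. At the low end in Control were PC at 3.37, SLC25A10 at 4.29 and PDP1 at 5.68 CPM per kb, with PCK1 close to 0. The subunits of isocitrate dehydrogenase 3 were counted at different levels within 1 complex, with IDH3B at 83.1, IDH3G at 29.6 and IDH3A at 6.75 CPM per kb in Control. Genes on the opposite strand cover 38.78% of the exonic bases of IDH3A and 9.89% of those of IDH3G, so the size of these differences is uncertain.

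Since both compounds are used to switch on HIF, the promoters of the members were read for the core letters of the hypoxia response element. The RefSeq promoter table (GRCh38.p14) held 33 of the 36 members (not PDP1, OGDH or PCK1), each read from 250 bases before to 50 after its start. The letters ACGTG or GCGTG stood on at least 1 strand in 24 of the 33 (72.7%). They stood in 63.6% of the 10907 tested genes with an entry and in 48.8% of all 27305 genes of the table. IDH2 is among the 24, but the start read for it lay 1847 bases from its MANE Select start. ACGTG alone stood in 9 of the 33 (27.3%) and in 26.6% of the tested genes. The members' share thus lay near that of other expressed genes. The windows of PC, IDH1 and DLST are shown because PC had the highest log2 fold change with OD among the 35 members other than PCK1, and IDH1 and DLST were the members upregulated by CoCl2. Each is given 5′ to 3′ on the strand of the gene, without bases that are exonic in any annotated transcript, with the motif letters in capitals.
PC, chr11:66958387-66958633, minus strand, 250 to 4 bases before the start: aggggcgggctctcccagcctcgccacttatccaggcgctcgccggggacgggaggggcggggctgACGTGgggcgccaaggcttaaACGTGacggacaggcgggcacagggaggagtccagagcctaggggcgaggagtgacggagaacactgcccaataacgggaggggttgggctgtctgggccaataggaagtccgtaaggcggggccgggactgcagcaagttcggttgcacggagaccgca
IDH1, chr2:208255114-208255213, minus strand, 142 to 43 bases before the start: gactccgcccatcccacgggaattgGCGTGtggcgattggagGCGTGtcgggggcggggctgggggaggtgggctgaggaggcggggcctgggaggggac
DLST, chr14:74881666-74881890, plus strand, 250 to 26 bases before the start: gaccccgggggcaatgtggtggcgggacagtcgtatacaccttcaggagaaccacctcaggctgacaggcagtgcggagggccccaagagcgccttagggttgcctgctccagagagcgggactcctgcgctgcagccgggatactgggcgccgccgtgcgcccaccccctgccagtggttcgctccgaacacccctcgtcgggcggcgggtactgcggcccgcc
The PC window held ACGTG at -184 and -163, counted from the start. The IDH1 stretch held GCGTG at -117 and -100, with a further match at -157 outside the stretch. DLST had neither form in its whole window. A match shows only that the letters are there, and no binding was measured.

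Pyruvate enters the matrix through a carrier made of MPC1 and MPC2. MPC1 was measured at 15.3, 15.1 and 15.5 CPM in Control, 12.8, 15.4 and 14.5 CPM with CoCl2 and 19.3, 18.8 and 20.2 CPM with OD. The OD libraries lay above all others, and the Control and CoCl2 libraries overlapped. Its log2 fold change was 0.34 ± 0.08 with OD (edgeR adjusted p = 1.01e-04) and -0.11 ± 0.09 with CoCl2 (adjusted p = 0.24, 95% interval -0.28 to 0.06). MPC2 was measured at 47.7, 57.3 and 53.8 CPM in Control, 39.4, 45.4 and 41.2 CPM with CoCl2 and 46.8, 47.4 and 56.6 CPM with OD. Here the CoCl2 libraries were the lowest, at -0.34 ± 0.07 (adjusted p = 3.47e-05), and the OD libraries overlapped those of Control. MPC2 shares 21.8% of its exonic bases with the opposite strand, mainly with DCAF6 (67.6 to 74.7 CPM), so its counts are uncertain.

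In the pyruvate dehydrogenase complex, which makes acetyl-CoA from pyruvate, no subunit gene was called with either compound. Of PDHA1 and PDHB, which form the decarboxylating E1 part, PDHB had the larger change, -0.56 ± 0.05 with CoCl2 (adjusted p = 2.85e-15) and -0.32 ± 0.05 with OD (adjusted p = 8.59e-08). PDHA1 stood at -0.15 with CoCl2 and -0.16 with OD, and the difference between the compounds was 0.01 (95% interval -0.08 to 0.09). The acetyltransferase gene DLAT stood at -0.27 and -0.17. PDHX, whose protein anchors the E3 part to the core, was higher with CoCl2 at 0.55 ± 0.05 (adjusted p = 6.76e-17, but 0.04 with library size alone) and lower with OD at -0.20 ± 0.05 (adjusted p = 1.86e-04). DLD, the E3 dehydrogenase that pyruvate and oxoglutarate dehydrogenases share, stood at 0.12 with CoCl2, which turned to -0.39 with library size alone, and at -0.32 with OD. Genes on the opposite strand cover 19.3% of the exonic bases of PDHA1, 13.3% of those of DLAT, 7.63% of PDHB and 5.88% of DLD, the last beside LAMB1 at 523 to 679 CPM.

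The phosphatases PDP1 and PDP2 take off the phosphates by which the kinases silence pyruvate dehydrogenase, and PDPR is the regulatory partner of PDP1. PDP1 had a log2 fold change of 0.76 ± 0.07 with CoCl2 (adjusted p = 9.2e-16; 0.25 with library size alone) and -0.08 ± 0.07 with OD (adjusted p = 0.34). PDP2 stood at -0.30 with CoCl2 and -0.11 with OD. The PDP1 to PDP2 count ratio within a library, which needs no scaling between libraries, was 0.308 to 0.350 in Control, 0.666 to 0.704 with CoCl2 and 0.321 to 0.370 with OD. PDPR stood at 0.28 ± 0.05 with OD (adjusted p = 1.05e-06) and at 0.01 with CoCl2. Its near-identical copy PDPR2P has no row under that name. Annotation on the opposite strand covers 22.33% of the exonic bases of PDPR, so its counts are uncertain.

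Pyruvate carboxylase (PC, chr11:66848417-66958386, minus strand, gene span in GENCODE 44 on GRCh38, as for all spans here) makes oxaloacetate from pyruvate. Its libraries held 14.8, 14.8 and 14.0 CPM in Control, 14.2, 15.3 and 14.6 CPM with CoCl2 and 28.8, 29.2 and 29.0 CPM with OD. Every OD library lay near 29 CPM, and the Control and CoCl2 libraries overlapped. The log2 fold change with OD was 0.997 ± 0.07 (edgeR adjusted p = 2.7e-19), just inside the threshold of 1, so it was not called, although it was called by DESeq2 (1.01), under each other scaling and without Control 1, Control 2, OD 1 or OD 3 (1.00 to 1.02). With CoCl2 it was 0.01 ± 0.08 (adjusted p = 0.896, 95% interval -0.15 to 0.18), and the sign depended on the scaling (-0.49 with library size alone). The compounds differed by -0.99 ± 0.07 (adjusted p = 5.38e-19), lower with CoCl2 and just inside the threshold, which was passed under upper-quartile factors (-1.12), library size alone (-1.53), other count filters (-1.04 and -1.05), DESeq2 on 6 libraries (-1.003) and without CoCl2 2 (-1.01). LRFN4, the main gene among those on the opposite strand that cover 8.5% of the exonic bases of PC, held 17.4 to 18.2 CPM in Control, 7.13 to 7.51 CPM with CoCl2 and 12.03 to 17.2 CPM with OD. Against PDHA1 in the same library, PC went from 0.0740 to 0.0782 PC counts per PDHA1 count in Control to 0.163 to 0.176 with OD, and stood at 0.0807 to 0.0946 with CoCl2.

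The first enzyme of the cycle, citrate synthase (CS), was close to Control with CoCl2 at -0.07 ± 0.04 (edgeR adjusted p = 0.122, 95% interval -0.15 to 0.01) and lower with OD at -0.26 ± 0.04 (adjusted p = 7.81e-08). The mitochondrial forms of isocitrate dehydrogenase act next. IDH2 (chr15:90083045-90102477, minus strand), the NADP-dependent form, held 28.7, 26.6 and 29.4 CPM in Control, 6.35, 5.57 and 5.51 CPM with CoCl2 and 52.6, 55.6 and 51.5 CPM with OD. The 3 groups were fully apart, lowest with CoCl2 and highest with OD. IDH2 was downregulated by CoCl2 at -2.28 ± 0.09 (adjusted p = 1.06e-32), 4.86-fold lower, whereas OD gave 0.92 ± 0.06 (adjusted p = 4.84e-21), 1.89-fold higher but under the threshold. The direct comparison gave -3.20 ± 0.08 (adjusted p = 9.25e-43), so that IDH2 was 9.16-fold lower with CoCl2 than with OD.

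IDH3 is the NAD-dependent form that the cycle itself uses, built from the catalytic IDH3A and the regulatory IDH3B and IDH3G. IDH3B (chr20:2658395-2664219, minus strand) was measured at 133, 126 and 125 CPM in Control, 251, 230.4 and 241 CPM with CoCl2 and 103, 96.6 and 97.9 CPM with OD. CoCl2 libraries were the highest and OD libraries the lowest, without overlap. The difference between the compounds was 1.28 ± 0.04 (adjusted p = 6.38e-36; 0.73 with library size alone). Against Control, IDH3B stood at 0.91 ± 0.04 with CoCl2 (adjusted p = 1.85e-28) and -0.37 ± 0.05 with OD (adjusted p = 1.2e-10). Its partners did not follow with CoCl2: IDH3A stood at -0.04 (95% interval -0.17 to 0.09) and IDH3G at 0.00 (95% interval -0.12 to 0.12), both with a sign that depended on the scaling. With OD, IDH3A was at -0.42 and IDH3G at -0.32, near IDH3B. The IDH3A to IDH3B count ratio was 0.206 to 0.224 in Control, 0.108 to 0.115 with CoCl2 and 0.205 to 0.210 with OD. IDH3A shares 38.78% of its exonic bases with the opposite strand, mainly with ACSBG1, which had at most 16 counts in a library. IDH3G shares 9.89%, mainly with SSR4 at 152 to 218 CPM. The counts of both IDH3A and IDH3G are therefore uncertain.

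The oxoglutarate dehydrogenase complex turns 2-oxoglutarate into succinyl-CoA with an E1 part from OGDH or its relative OGDHL, the E2 core DLST and the shared DLD. OGDH (chr7:44606572-44709066, plus strand) held 155, 144 and 149 CPM in Control, 64.9, 64.3 and 70.6 CPM with CoCl2 and 146, 132 and 134 CPM with OD. OGDH was downregulated by CoCl2 at -1.16 ± 0.05 (edgeR adjusted p = 3.16e-31), and its CoCl2 libraries lay below all others. Control and OD overlapped, at -0.12 ± 0.05 (adjusted p = 0.0186). OGDHL (chr10:49734641-49762379, minus strand) held 25.6, 24.0 and 24.2 CPM in Control, 4.79, 6.27 and 4.82 CPM with CoCl2 and 23.0, 22.2 and 21.0 CPM with OD. It was downregulated further, at -2.24 ± 0.10 with CoCl2 (adjusted p = 1.89e-30), against -0.15 ± 0.07 with OD (adjusted p = 0.0559, 95% interval -0.29 to -0.01).

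DLST (chr14:74881891-74903743, plus strand) went the other way. It was measured at 115, 113 and 109.9 CPM in Control, 309, 312 and 321 CPM with CoCl2 and 121, 116 and 118 CPM with OD. All CoCl2 libraries lay above 300 CPM and all others at 121 CPM or below. DLST was upregulated by CoCl2 at 1.48 ± 0.04 (edgeR adjusted p = 1.38e-40), or 2.79-fold, and lay at 0.07 ± 0.04 with OD (adjusted p = 0.138, 95% interval -0.01 to 0.16). With library size alone the CoCl2 change was 0.97 and no longer past the threshold. The difference between the compounds was 1.41 ± 0.04 (adjusted p = 1.44e-39). Within libraries, the OGDH to DLST ratio went from 1.27 to 1.36 in Control to 0.206 to 0.220 with CoCl2, a 6.26-fold lower ratio, and was 1.14 to 1.20 with OD. The DLD to DLST ratio went from 1.40 to 1.47 in Control to 0.548 to 0.580 with CoCl2 and 1.06 to 1.12 with OD, 2.57-fold and 1.31-fold lower. The pseudogene DLSTP1 had at most 27 counts in a library, and the other pseudogenes of members with a row at most 35 (GLUD1P3).

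**Figure D2:**
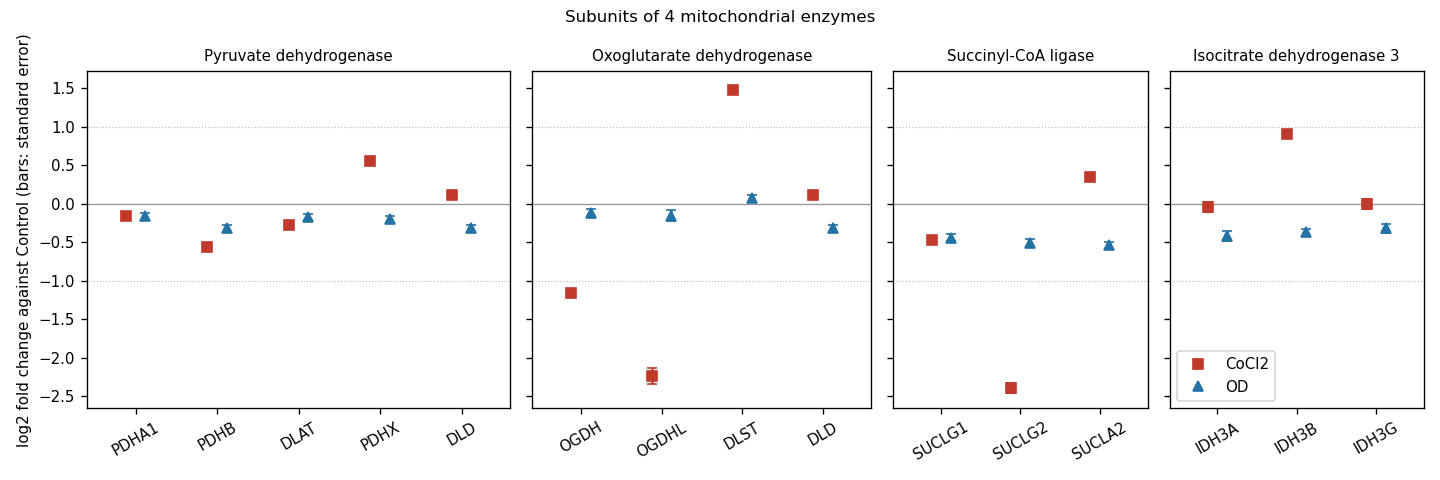
Vertical axis, log2 fold change against Control (edgeR, 9 libraries; bars, standard error; dotted lines at 1 and -1) for the subunits of 4 enzymes, red squares CoCl2 and blue triangles OD. With OD the subunits lie between -0.54 (SUCLA2) and 0.07 (DLST), whereas with CoCl2 DLST is at 1.48 beside OGDH at -1.16, and SUCLA2 at 0.34 (-0.16 with library size alone) beside SUCLG2 at -2.39.

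Succinyl-CoA ligase pairs the common SUCLG1 with SUCLA2, which makes ATP, or with SUCLG2, which makes GTP. SUCLG2 (chr3:67360460-67654612, minus strand) held 70.3, 70.9 and 70.1 CPM in Control, 14.1, 12.5 and 13.6 CPM with CoCl2 and 49.3, 47.1 and 52.3 CPM with OD. The groups did not overlap, with CoCl2 lowest and OD between. SUCLG2 was downregulated by CoCl2 at -2.39 ± 0.07 (edgeR adjusted p = 6.46e-41), 5.24-fold, and stood at -0.51 ± 0.05 with OD (adjusted p = 6.44e-13). SUCLA2 stood at 0.34 ± 0.05 with CoCl2 (adjusted p = 9.13e-10), which turned to -0.16 with library size alone, and at -0.54 ± 0.05 with OD (adjusted p = 8.48e-16). SUCLG1, with 6.46% of its exonic bases covered on the opposite strand, was lower with both, at -0.47 and -0.44, and the difference between the compounds was -0.03 (95% interval -0.12 to 0.06). The SUCLG2 to SUCLA2 ratio within a library was 0.726 to 0.730 in Control, 0.102 to 0.113 with CoCl2 and 0.722 to 0.783 with OD. It was thus 6.68-fold lower with CoCl2, while the OD and Control ratios overlapped.

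The last steps of the cycle make malate and then oxaloacetate. Fumarase (FH, chr1:241497511-241519799, minus strand) held 161, 151 and 156 CPM in Control, 59.0, 54.8 and 59.5 CPM with CoCl2 and 115, 114 and 118 CPM with OD. The groups were apart, again with CoCl2 lowest and OD between. FH was downregulated by CoCl2 at -1.43 ± 0.05 (edgeR adjusted p = 1.75e-36), 2.69-fold, and stood at -0.43 ± 0.04 with OD (adjusted p = 4.38e-13). CoCl2 against OD gave -0.999 ± 0.05 (adjusted p = 4.8e-28), just inside the threshold, and passed it with any 1 library left out except CoCl2 2 or OD 3. Malate dehydrogenase 2 (MDH2) held 276, 268 and 294 CPM in Control, 219, 221 and 225 CPM with CoCl2 and 209, 199 and 202 CPM with OD. Both treated groups lay below Control, at -0.33 ± 0.04 with CoCl2 (adjusted p = 8.87e-11) and -0.46 ± 0.04 with OD (adjusted p = 2.24e-15).

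Several cycle reactions have a cytosolic counterpart encoded by another gene. IDH1 (chr2:208236229-208266074, minus strand), the cytosolic and peroxisomal NADP-dependent isocitrate dehydrogenase, held 315, 306 and 290.4 CPM in Control, 673, 672 and 649 CPM with CoCl2 and 388, 390.0 and 408 CPM with OD. The groups were apart, with CoCl2 highest. IDH1 was upregulated by CoCl2 at 1.13 ± 0.04 (edgeR adjusted p = 2.14e-35), 2.19-fold, or 0.62 with library size alone, which was not past the threshold. With OD it stood at 0.38 ± 0.04 (adjusted p = 1.02e-12). Together with the fall of IDH2, the IDH1 to IDH2 count ratio went from 9.86 to 11.5 in Control to 106 to 121 with CoCl2, a 10.7-fold higher ratio, and to 7.02 to 7.92 with OD, a 1.45-fold lower one.

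MDH1 and GOT1 work with their mitochondrial partners MDH2 and GOT2 in the malate-aspartate shuttle, which carries reducing equivalents into the matrix. MDH1 held 224, 215 and 216 CPM in Control, 158, 159 and 165 CPM with CoCl2 and 202, 201 and 198 CPM with OD. Its groups did not overlap, with log2 fold changes of -0.45 ± 0.04 (edgeR adjusted p = 3.43e-15) and -0.13 ± 0.04 (adjusted p = 0.00512). The MDH1 to MDH2 ratio went from 0.736 to 0.814 in Control to 0.720 to 0.732 with CoCl2 and 0.964 to 1.01 with OD. GOT1, the cytosolic aspartate aminotransferase, held 104, 97.5 and 104 CPM in Control, 162, 152 and 158 CPM with CoCl2 and 129.7, 123 and 122 CPM with OD. Both treated groups lay above Control, at 0.63 ± 0.05 with CoCl2 (adjusted p = 7e-20; 0.12 with library size alone) and 0.29 ± 0.05 with OD (adjusted p = 6.12e-08).

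GOT2, the matrix aminotransferase, moved opposite to GOT1. It was measured at 213, 210.1 and 211 CPM in Control, 118, 113 and 124 CPM with CoCl2 and 141, 142 and 130.0 CPM with OD. Both treated groups lay below Control, at -0.84 ± 0.04 with CoCl2 (edgeR adjusted p = 2.66e-26) and -0.62 ± 0.04 with OD (adjusted p = 4.81e-20). The GOT1 to GOT2 ratio within a library was 0.464 to 0.492 in Control, 1.28 to 1.38 with CoCl2 and 0.868 to 0.935 with OD, 2.77-fold and 1.89-fold higher. ACLY, which splits exported citrate back to acetyl-CoA for lipid synthesis, stood at 0.29 ± 0.04 with OD (adjusted p = 1.28e-09) and at 0.11 ± 0.04 with CoCl2, which turned to -0.39 with library size alone. GLUD1, which links glutamate to 2-oxoglutarate, was at -0.56 ± 0.04 with CoCl2 (adjusted p = 1.46e-18) and -0.49 ± 0.04 with OD (adjusted p = 6.15e-16), and the difference between the compounds was -0.07 (95% interval -0.15 to 0.02).

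**Figure D3:**
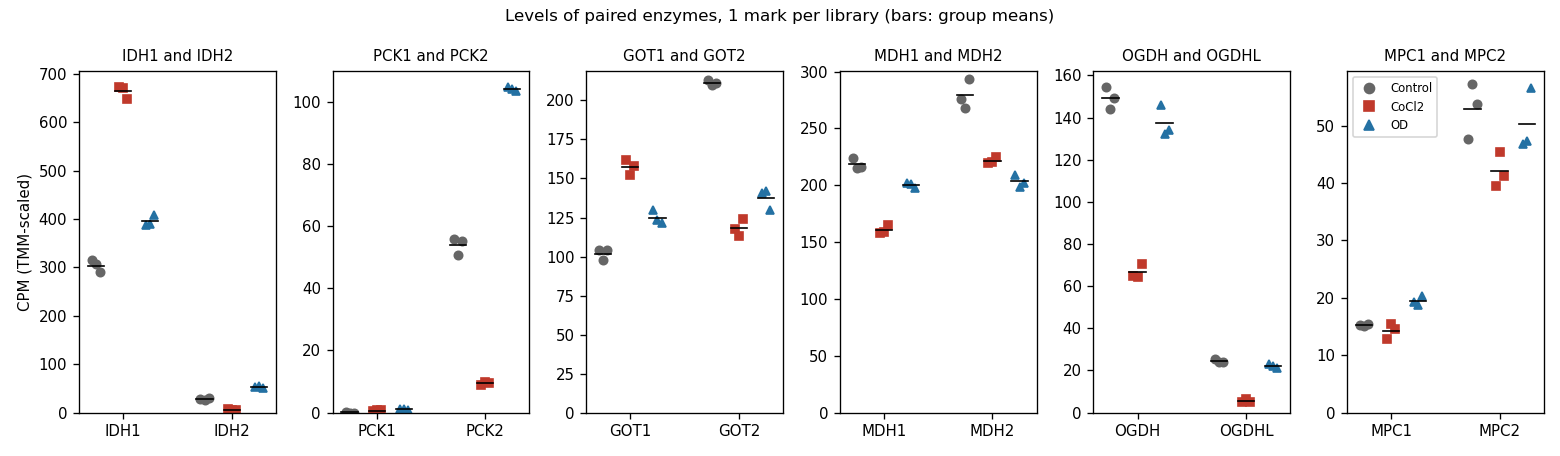
Vertical axes, CPM after TMM scaling from 0 upwards, each panel with its own scale, for 6 pairs of related genes, 1 mark per library (grey circles Control, red squares CoCl2, blue triangles OD) and a bar at each group mean. IDH1 reaches 649 to 673 CPM with CoCl2 while IDH2 falls to 5.51 to 6.35 CPM, and PCK2 lies near 104 CPM with OD and near 9 CPM with CoCl2.

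Phosphoenolpyruvate carboxykinase, which draws oxaloacetate off towards phosphoenolpyruvate, has a mitochondrial form, PCK2, and a cytosolic form, PCK1. PCK2 (chr14:24094053-24110598, plus strand) held 55.7, 50.8 and 55.1 CPM in Control, 8.83, 9.98 and 9.60 CPM with CoCl2 and 105, 104 and 104 CPM with OD. The 3 groups were far apart, in the same order as for IDH2. PCK2 was downregulated by CoCl2 at -2.51 ± 0.07 (edgeR adjusted p = 3.67e-40), 5.70-fold, and stood at 0.95 ± 0.05 with OD (adjusted p = 1.91e-25), 1.93-fold higher but under the threshold. CoCl2 against OD gave -3.46 ± 0.07 (adjusted p = 3.14e-49), 11.0-fold lower with CoCl2. The IDH2 to PCK2 ratio was 0.515 to 0.535 in Control, 0.558 to 0.718 with CoCl2 and 0.497 to 0.533 with OD.

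PCK1 (chr20:57561080-57568121, plus strand) was barely present. It had 1, 0 and 0 counts in Control, 7, 10 and 13 counts with CoCl2 and 24, 26 and 18 counts with OD. Every treated library lay above every Control library, and every OD library above every CoCl2 library. From the summed counts of each group, scaled to the library sizes, PCK1 was 35.5 times Control with CoCl2 and 61.0 times with OD. These ratios rest on 1 count in Control. PCK1 passed the filter only through the treated libraries, so the ratios describe its counts and are no test of a rise. The ratio of CoCl2 to OD was 0.581 (exact 95% interval 0.365 to 0.906, counting error only). At its highest, 1.15 CPM with OD, PCK1 stayed far below PCK2.

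D2HGDH (chr2:241734602-241768816, plus strand) oxidises the side product D-2-hydroxyglutarate to 2-oxoglutarate in the matrix. It held 24.9, 22.0 and 24.6 CPM in Control, 2.86, 3.64 and 4.14 CPM with CoCl2 and 17.0, 18.0 and 19.5 CPM with OD. The groups did not overlap, with CoCl2 lowest. It was downregulated by CoCl2 at -2.73 ± 0.11 (edgeR adjusted p = 1.95e-32), 6.64-fold, and stood at -0.39 ± 0.08 with OD (adjusted p = 9.78e-06). It shares 18.57% of its exonic bases with annotation on the opposite strand.

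Of the carriers that exchange cycle intermediates across the inner membrane, SLC25A11 (chr17:4937130-4940053, minus strand), the oxoglutarate carrier of the malate-aspartate shuttle, held 25.9, 24.8 and 26.6 CPM in Control, 4.79, 4.18 and 5.66 CPM with CoCl2 and 14.2, 14.8 and 15.2 CPM with OD. The groups were apart, with CoCl2 lowest and OD between. It was downregulated by CoCl2 at -2.37 ± 0.10 (edgeR adjusted p = 8.8e-32) and stood at -0.81 ± 0.08 with OD (adjusted p = 1.4e-14). The dicarboxylate carrier SLC25A10 (chr17:81712236-81721016, plus strand) held 9.04, 8.48 and 7.46 CPM in Control, 1.37, 1.08 and 1.05 CPM with CoCl2 and 5.59, 6.44 and 3.78 CPM with OD. Again the groups were apart in the same order, but the CoCl2 libraries held only 14 to 22 counts. Other annotation on the same strand also covers 46.59% of the exonic bases of SLC25A10, so its value is uncertain. It was downregulated by CoCl2 at -2.83 ± 0.19 (adjusted p = 3.31e-21) and stood at -0.64 ± 0.13 with OD (adjusted p = 1.02e-05). The citrate carrier SLC25A1 stood at -0.64 ± 0.05 with CoCl2 (adjusted p = 1.78e-18) and 0.09 ± 0.05 with OD (adjusted p = 0.0784).

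**Figure D4:**
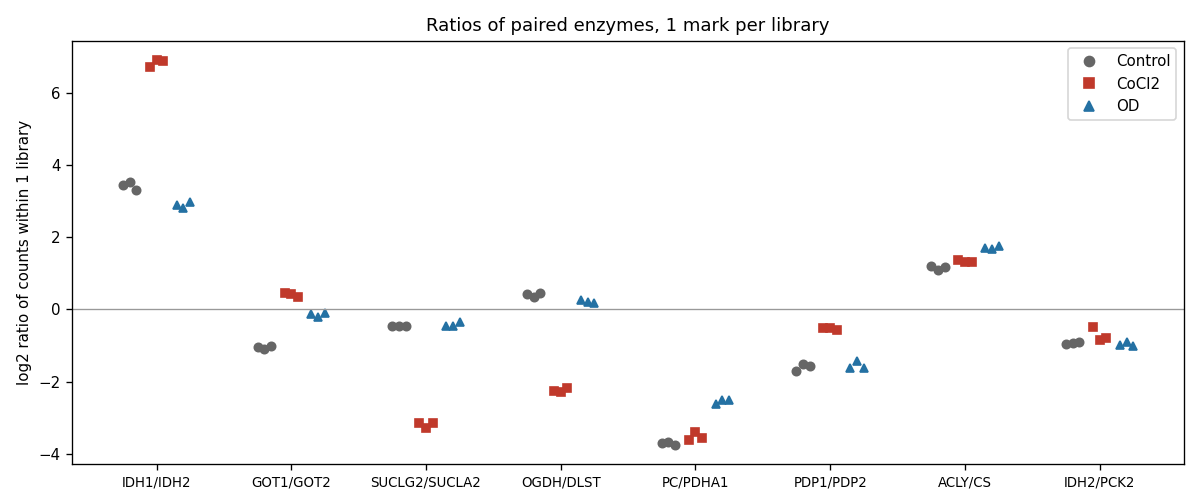
Vertical axis, log2 of the ratio of the counts of 2 members within 1 library, 1 mark per library (grey circles Control, red squares CoCl2, blue triangles OD), for 8 pairs. IDH1/IDH2 and GOT1/GOT2 lie higher with CoCl2 than in the other groups, SUCLG2/SUCLA2 and OGDH/DLST lower, and PC/PDHA1 highest with OD; IDH2/PCK2 stays between 0.497 and 0.718 in all 9 libraries on the ratio scale.

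The ratios within libraries were compared for 17 pairs, 5 of them added after seeing the data, with 49 tests in all. In 42 of these tests the groups did not overlap. No such share was taken for other gene pairs. Of all tested single genes, 68% to 83.8% did not overlap in the 3 comparisons, so the 42 is no result about these pairs. With 3 libraries against 3 the two-sided exact permutation test cannot go below p = 0.1, which became 0.117 after Benjamini-Hochberg adjustment, so none of these tests could reach 0.05. The OD and Control ratios overlapped for OGDH/OGDHL, SUCLG2/SUCLA2, PDP1/PDP2, PDHA1/PDHB, IDH3A/IDH3B, SUCLG2/SUCLG1 and IDH2/PCK2. For PCK1/PCK2, counts of 0 in Control left no ratio, and CoCl2 (0.0493 to 0.0775) and OD (0.00926 to 0.0111) were apart.

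Around the 36 members, 26 of 28 further genes of the pathway could be tested. Of these, 3 were upregulated and 8 downregulated with CoCl2, 42.3% against 43.2% of all tested genes, and 3 upregulated and 2 downregulated with OD, 19.2% against 13.3%. The 8 include GLS2, which was so low with CoCl2 that it passed the filter only through the other groups. None of the 4 subunit genes of succinate dehydrogenase (SDHA, SDHB, SDHC and SDHD), which oxidises succinate to fumarate, was called with either compound by edgeR. SDHC, a membrane anchor of the enzyme, stood at -0.79 with CoCl2 and -0.20 with OD, SDHB, the iron-sulphur subunit, at 0.12 and -0.33, and SDHA, the flavoprotein subunit, at 0.37 and 0.22. By adjusted p alone, 3 of these 4 genes passed with CoCl2 and 4 of 4 with OD, beside 83.2% and 65.6% of all tested genes. Other annotation on the same strand covers 21.68% of the exonic bases of SDHA and 11.43% of those of SDHD, so their counts are uncertain. PDK1, a kinase that silences pyruvate dehydrogenase, held 10.2 to 11.7 CPM in Control, 55.4 to 62.1 CPM with CoCl2 and 106 to 108 CPM with OD, without overlap. PDK1 was upregulated at 2.39 ± 0.07 with CoCl2 (edgeR adjusted p = 3.23e-40) and 3.26 ± 0.06 with OD (adjusted p = 2.73e-48), beside PDP1 at 0.76 and -0.08.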

How the data were processed

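Poly(A)-selected stranded mRNA libraries of 9 uCaco-2 samples were read as single-end 75-nucleotide reads. Per the labels and the study's methods, the authors used FastQC 0.11.9, cutadapt 2.10 and STAR 2.7.5b on GRCh38 with GENCODE genes, and deposited raw counts per gene symbol, not normalized, with 1 column per library and 0 columns left unused. The counting tool, its strand setting and its treatment of reads that fit several genes are not given in the sources used here. They bear on genes that overlap others or have near copies, and overlaps above 5% of the exonic bases are given beside the members.

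Scaling used TMM factors in edgeR 4.0.16 (R 4.3.3), which kept 15944 of 60591 symbols by its expression filter and fitted a robust quasi-likelihood model over the 9 libraries with 1 mean per group. Intervals of 95% are normal intervals from the fitted standard errors. Ratios within libraries used exact permutation tests (scipy 1.17.1). Coordinates and transcript lengths came from GENCODE 44 on GRCh38. Where the promoter table gave several starts for a gene, the one nearest the MANE Select start was taken. On simulated counts for CoCl2 against Control, 200 of 200 changed genes were recovered among 14834 genes and 4 of 14634 unchanged genes were called. Recovery of genes with a log2 fold change near 1 was not tested. Nor was recovery with as large a share of changed genes as the 43.2% called with CoCl2. In the weakest libraries a gene such as SLC25A10, with 14 to 22 counts, has a standard error of 0.19 on the log2 scale, and intervals on counts cover counting error only.

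The members, lists and pairs were chosen with earlier results of these data known. Values in each library are given for members called in any comparison, the 3 largest changes of each comparison and the genes of 6 isoform pairs. BNIP3, VIL1, EPCAM, PTPRC, the SDH genes and PDK1 came from lists outside the members, some genes of which are not reported here. Alternatives were other scalings (RLE, upper-quartile, library size alone), other count filters, DESeq2 1.42.0, fits on 6 libraries, the replicate number as a block, glmTreat, adjusted p alone and each library left out in turn. The pairs (OGDH/DLST, DLD/DLST, SUCLG2/SUCLG1, IDH1/PCK2 and IDH2/PCK2), the motif TGATGNAA and the counts without PCK1 were added after seeing the data.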

Additional observations from a re-analysis of the deposited data

How the results depend on the processing

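Counts here include PCK1, which passed the filter only through treated libraries, so its calls against Control are no test of a rise. The number of members upregulated by CoCl2 went from 3 to 1 with library size alone (PCK1), DLST being at 0.97 and IDH1 at 0.62, while all genes went from 3167 to 1833 upregulated and from 3724 to 5839 downregulated. PDHB (-1.067), GLUD1 (-1.06), GOT2 (-1.34) and SLC25A1 (-1.14) then became downregulated. CoCl2 against OD went from 2 higher members to 0 with library size alone, and PC (-1.53), FH (-1.55), PCK1 (-1.32) and SLC25A1 (-1.28) became lower, while all genes went from 2790 to 1351 higher and from 3790 to 6026 lower. With OD, 2 members instead of 1 were upregulated under RLE factors, upper-quartile factors, library size alone, DESeq2 on 9 or 6 libraries and edgeR on 6 libraries, PC being added at 1.004 to 1.038. Leaving out 1 library gave 1 to 2, with 2 without Control 1, Control 2, OD 1 or OD 3. By adjusted p alone, 10 members were higher and 20 lower with CoCl2, 9 and 22 with OD, and 12 and 21 in CoCl2 against OD. PCK1 had no value where at least 10 counts in every library were asked for. Nor had PCK1 a value for CoCl2 against Control in edgeR on 6 libraries. OGDH in CoCl2 against OD was at -0.998 under RLE factors.

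Some changes near 0, or under other scalings, turned direction. For CoCl2 against Control, library size alone gave DLD -0.39, PDPR -0.49, PC -0.49, SUCLA2 -0.16 and ACLY -0.39. Upper-quartile factors gave PDPR -0.0858 and PC -0.0880, no filter PDPR -0.0507 and PC -0.0526, at least 10 counts PDPR -0.0143 and PC -0.0167, and edgeR on 6 libraries PC -0.000962. RLE factors gave IDH3A 0.0101 and IDH3G 0.0494, and DESeq2 on 9 libraries IDH3G 0.0134. Leaving out 1 library gave -0.0466 to 0.0408 for IDH3G, -0.0401 to 0.0555 for PDPR and -0.0184 to 0.0405 for PC. For CoCl2 against OD, library size alone gave PDHA1 -0.54, DLD -0.11, CS -0.35, IDH3A -0.17, IDH3G -0.23, MDH2 -0.42 and GOT1 -0.21. RLE factors gave SUCLG1 0.0134, upper-quartile factors PDHA1 -0.12 and MDH2 -0.00675, no filter PDHA1 -0.0569, at least 10 counts PDHA1 -0.0444 and DESeq2 on 6 libraries PDHA1 -0.00962. Leaving out 1 library gave -0.0167 to 0.0467 for PDHA1. The causes were not tested. Of the member promoters, 27.3% held ACGTG alone and 6.06% TGATGNAA, against 72.7% with ACGTG or GCGTG.

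The labels do not say whether the replicate numbers pair the libraries. Deviations of same-numbered libraries from their group means correlated at 0.0376 at most, so no shared effect of the number was seen. With the number as a block, 3 and 9 members were called higher and lower with CoCl2, 1 and 0 with OD, and 2 and 9 in CoCl2 against OD, FH being added at -1.002.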

Other observations

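Among the pathway genes outside the 36 members, several feed carbon into the cycle by other routes. Cytosolic malic enzyme, ME1, was upregulated by CoCl2 at 1.08 ± 0.04 (edgeR adjusted p = 3.23e-34), with 189 to 202 CPM in Control and 407 to 421 CPM with CoCl2, while the mitochondrial forms ME2 (-1.46) and ME3 (-1.70) were downregulated. With OD the same genes stood at 0.22, -0.79 and -0.53. LDHA, which turns pyruvate to lactate, was upregulated by both compounds (1.32 with CoCl2 and 1.44 with OD). LDHB was downregulated by both (-1.02 and -1.15), although other annotation on its strand covers 33.42% of its exonic bases. With library size alone, the median of all tested genes with CoCl2 went from -0.05 to -0.55, and IDH1 and DLST fell under the threshold. Values of ME1 and LDHA under that scaling are not given here.

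The glutamate carrier SLC25A22 was downregulated by CoCl2 at -1.92 and stood at -0.58 with OD. The aspartate-glutamate carrier SLC25A12 (-1.10 with CoCl2, 0.12 with OD) was also downregulated by CoCl2. The glutaminase gene GLS2 stood at -2.05 with CoCl2 and -0.23 with OD, at 1.24 CPM or below. With CoCl2 it was so low that it passed the filter only through the other groups, so its fall is tied to the filter. GLS2 shares 77.1% of its exonic length with genes on the opposite strand, mainly SPRYD4, so its counts are uncertain. Genes on the opposite strand cover 9.84% of SLC25A22 and 15.14% of LIPT2. LIPT2, which starts the attachment of lipoate to the E2 subunits of the dehydrogenases, held 8.58 to 11.0 CPM in Control and 1.08 to 1.68 CPM with CoCl2, a change of -2.82 ± 0.17 (edgeR adjusted p = 4.15e-24), beside DLST at 1.48. PDK3, another pyruvate dehydrogenase kinase, was upregulated by OD at 1.82 ± 0.09 and stood at 0.52 with CoCl2, a difference between the compounds of -1.30 ± 0.09 (edgeR adjusted p = 6.63e-21).

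TGATGNAA, the letters of an ATF4-type site, stood in the promoter windows of GOT1 and SLC25A11. These 2 were 6.06% of the 33 member windows, beside 1.52% of those of the tested genes and 3.60% of all 27305. With CoCl2, GOT1 lay above Control and SLC25A11 below it, and the windows of PCK2 and IDH2 held no match. This motif was chosen after seeing the data.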
